A study of Mus musculus with 6 samples.

Results

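In GC-2spd (GC2) cells, a mouse spermatocyte-derived line, 66 transcripts were higher after triptolide than in every control and triptonide library. They were chosen from 65189 rows that carry a mouse Ensembl transcript ID, in a table of 65535 rows that ends at the row limit of an older spreadsheet format and may be incomplete. A member has a control mean under 200 FPKM (fragments scaled to the transcript's length and to the mapped fragments of the library). Both triptolide libraries hold at least 1 FPKM and at least 2 times the highest of the 4 triptonide and control values, and the triptonide mean is at most 1.5 times the control mean. The choice therefore used the value of every library in all 3 comparisons, and the levels and differences of the members are given as a description. Calls for the members from a fit over the whole table are listed further on as counts beside the share of all transcripts called, and support nothing.

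The sample labels name the cell line, whereas the series' own design description names testis, a conflict that was not resolved here. RNA was sequenced from 6 libraries, 2 each of cells exposed to triptolide, cells exposed to triptonide and control cells. The labels' protocol, worded alike for all samples, describes 100000 cells per well of 6-well plates cultured for 12 h in 2 mL of medium and then exposed to 0.1 µM triptolide for 24 h. It gives no dose or time for triptonide and no vehicle for the controls, so values after the 2 compounds stand side by side at doses that cannot be said to match. Ribosomal RNA was removed before strand-specific libraries were read as 150-base paired ends. No genotype, clone or batch is labelled, and the labels do not say whether both libraries of a group are separate cultures, so their spread may be technical.

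Triptolide is a diterpenoid epoxide of the vine Tripterygium wilfordii that binds the XPB subunit of TFIIH, the general transcription factor that opens promoter DNA for RNA polymerase II, and so inhibits transcription broadly. Triptonide is a close analog that carries a ketone where triptolide carries a hydroxyl group, and both compounds are known for their effects on male germ cells. When transcription is blocked, the RNA pool that remains depends on how long each RNA lasts. FPKM is a share of each library's RNA, so a higher FPKM does not by itself mean more molecules per cell, and fewer cells of a kind cannot be told apart from less RNA per cell.

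The table does not pair transcripts with genes, and the gene tables used here hold no mouse transcript IDs. The members are therefore named by transcript ID, without gene symbols, roles, sequences or coordinates, and the cell line was not checked against germ cell markers. Across libraries the summed FPKM of the table was 588470 and 503572 after triptolide, 395459 and 376961 after triptonide, and 372058 and 349558 in control. The absolute depth is unknown. Values near 0 can be failed estimates, so such transcripts are only said to be listed at 0.

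Most members were transcripts of low level that were also detected without triptolide. The triptolide means ran from 1.02 to 797 FPKM with a median of 2.35 FPKM, against medians of 0.417 FPKM for the triptonide means and 0.543 FPKM for the control means. By triptolide mean, 27 members lay between 1 and 2 FPKM, 18 between 2 and 5 FPKM, 15 between 5 and 20 FPKM and 6 above 20 FPKM. By control mean, 41 lay between 0.1 and 1 FPKM, 13 between 1 and 5 FPKM, 5 at or above 5 FPKM, 6 above 0 but under 0.1 FPKM, and 1 was listed at 0. The members made up 0.566% of the 11659 annotated transcripts with at least 1 FPKM in both triptolide libraries and a control mean under 200 FPKM.

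**Figure D1:**
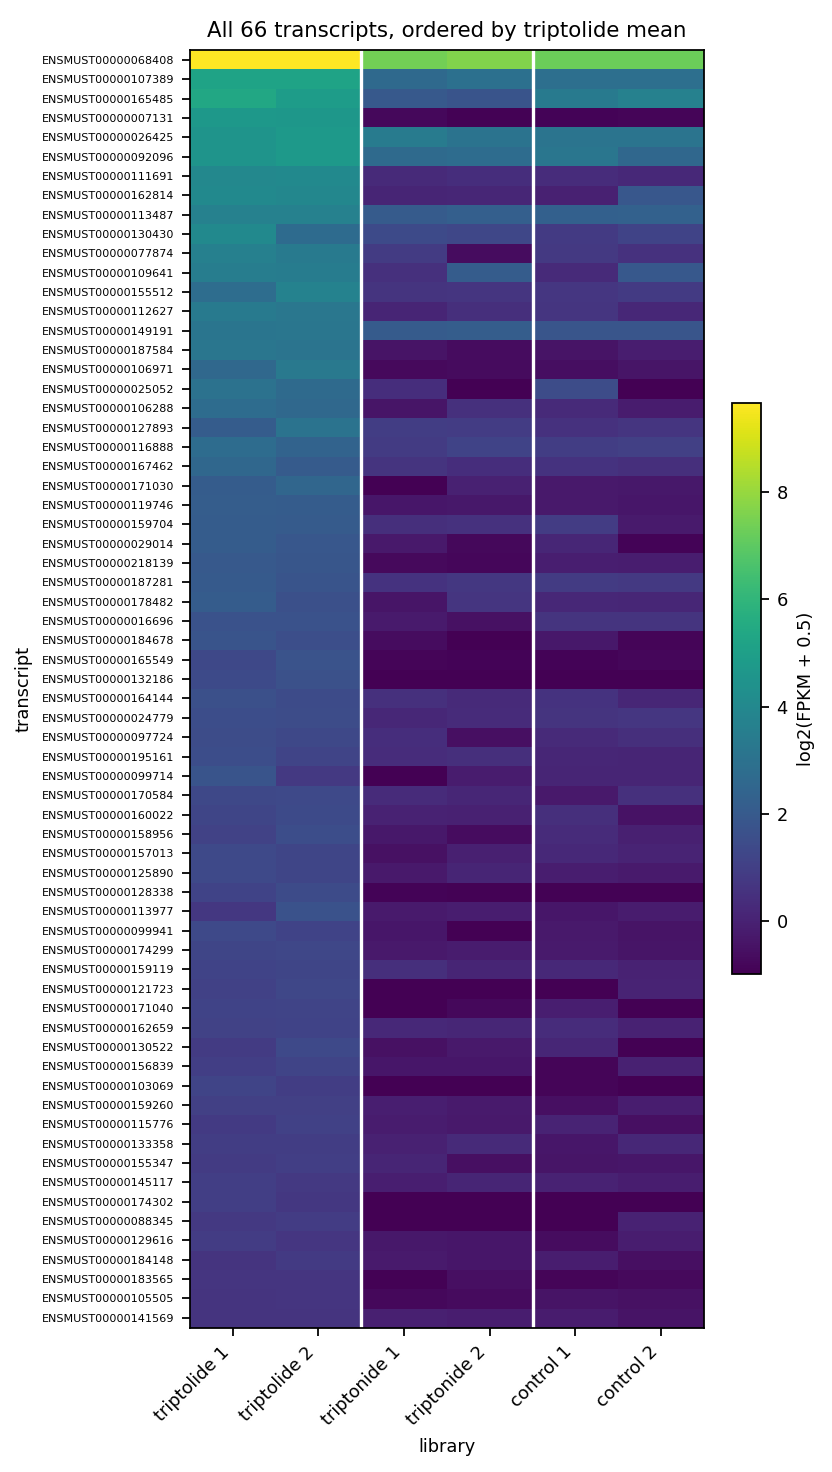
Level of each of the 66 members as log2(FPKM + 0.5), by library, with the triptolide libraries in the left pair of columns, triptonide in the middle pair and control in the right pair. Rows run down by triptolide mean, and a value of 0 FPKM has the darkest colour; the left pair is brighter than the other 4 columns in every row, as the choice requires, while the triptonide and control columns look alike in most rows.

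A single transcript dominated the summed level. ENSMUST00000068408 had 809 and 786 FPKM after triptolide, 168 and 196 FPKM after triptonide, and 154 and 155 FPKM in control. Its triptolide mean of 797 ± 15.8 FPKM was 5.16 times the control mean of 155 ± 1.15 FPKM (SD, n = 2 each), and the triptonide mean was 182 ± 20.1 FPKM. Over all members the sum was 1198 and 1166 FPKM after triptolide, 228 and 259 FPKM after triptonide, and 228 and 229 FPKM in control. Without ENSMUST00000068408 the sums were 389 and 379 FPKM after triptolide, 60.5 and 62.2 FPKM after triptonide, and 74.1 and 73.3 FPKM in control.

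Far below it came a group of transcripts that included a pair in adjacent rows. ENSMUST00000107389 had 36.1 and 36.1 FPKM after triptolide, 5.80 and 7.18 FPKM after triptonide, and 6.99 and 6.97 FPKM in control. ENSMUST00000007131, in the row directly after it in the table, had 25.3 and 24.5 FPKM after triptolide, 0.0796 and 0.0256 FPKM after triptonide, and 0.0414 and 0.0534 FPKM in control. The first of this pair was thus detected in all groups, while ENSMUST00000007131 was near 0 in all 4 libraries without triptolide. Its lower triptolide value was 307 times the highest of those 4, a ratio whose denominator lies close to 0.

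ENSMUST00000026425 had 22.3 and 27.0 FPKM after triptolide, 10.4 and 7.89 FPKM after triptonide, and 8.18 and 8.01 FPKM in control. ENSMUST00000092096 had 22.4 and 26.7 FPKM after triptolide, 5.97 and 6.33 FPKM after triptonide, and 8.49 and 5.44 FPKM in control. In both, the triptonide and control values overlapped. ENSMUST00000111691 stood lower outside triptolide, with 15.1 and 16.2 FPKM after triptolide, 0.716 and 0.829 FPKM after triptonide, and 0.793 and 0.677 FPKM in control. Its lower triptolide value was 18.3 times the highest other one.

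The remaining 2 of the 8 highest members had a triptonide mean far below the control mean. ENSMUST00000165485 had 41.2 and 29.4 FPKM after triptolide, 3.44 and 2.89 FPKM after triptonide, and 9.98 and 12.3 FPKM in control. ENSMUST00000162814 had 16.3 and 14.7 FPKM after triptolide, 0.583 and 0.613 FPKM after triptonide, and 0.494 and 3.22 FPKM in control. The low triptonide to control ratio of the second, 0.322, came from control replicate 2 alone, since control replicate 1 lay below both triptonide libraries.

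**Figure D2:**
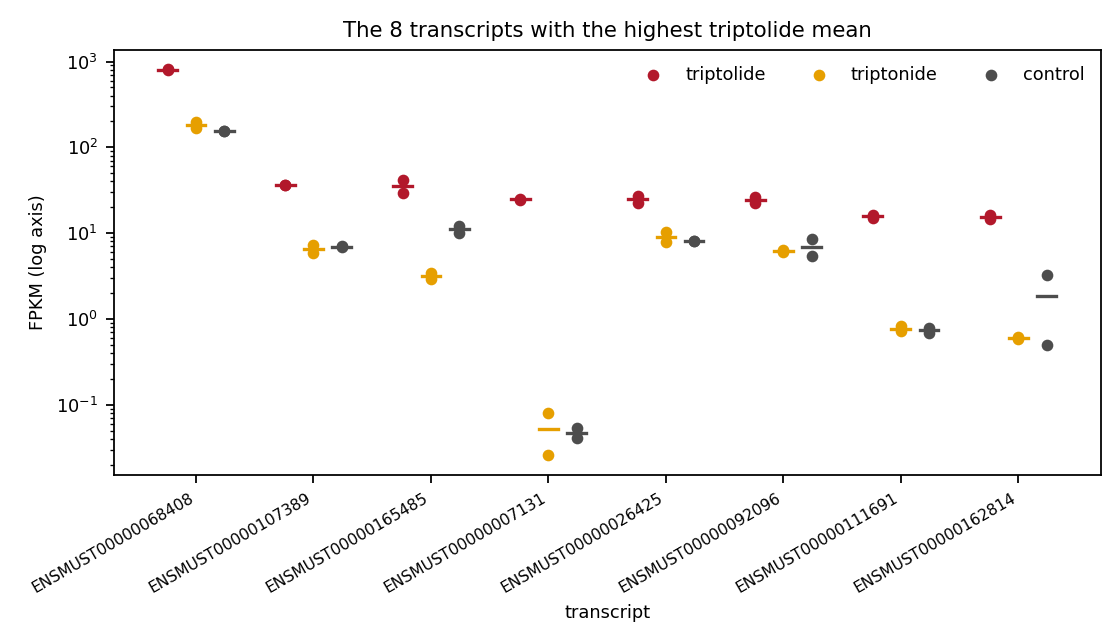
FPKM on a log axis of the 8 members with the highest triptolide mean, with 1 point per library and a bar at the mean of 2 libraries, in the order triptolide, triptonide and control for each transcript. The triptolide points lie above all others for each transcript, at 808.6 and 786 FPKM for the highest member, and ENSMUST00000007131 has the widest gap.

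Of the 66 members, 22 had a lower triptolide value between 2 and 2.5 times the highest other library, 23 between 2.5 and 5 times, 11 between 5 and 10 times and 9 at 10 times or more. The last member, ENSMUST00000132186, was listed at 0 in all 4 triptonide and control libraries and has no such ratio, with 2.13 and 2.59 FPKM after triptolide. Among members with at least 0.1 FPKM in a library without triptolide, the largest ratio was 21.6 for ENSMUST00000106971. It had 5.54 and 9.40 FPKM after triptolide, 0.103 and 0.112 FPKM after triptonide, and 0.154 and 0.256 FPKM in control.

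Further members with high ratios lay between 0.05 and 1.1 FPKM without triptolide, apart from 1 value listed at 0. ENSMUST00000187584 had 8.64 and 8.04 FPKM after triptolide, 0.248 and 0.146 FPKM after triptonide, and 0.245 and 0.412 FPKM in control. ENSMUST00000112627 had 9.61 and 8.91 FPKM after triptolide, 0.561 and 0.837 FPKM after triptonide, and 1.04 and 0.626 FPKM in control. In both, the groups without triptolide overlapped. ENSMUST00000119746 had 3.87 and 3.76 FPKM after triptolide, 0.291 and 0.301 FPKM after triptonide, and 0.327 and 0.291 FPKM in control. ENSMUST00000184678 had 2.92 and 2.48 FPKM after triptolide, 0.148 FPKM and a listing at 0 after triptonide, and 0.306 and 0.0572 FPKM in control.

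A group of 5 members was above 0 somewhere outside triptolide but under 0.1 FPKM in every such library, a class chosen after the values were seen. ENSMUST00000007131, described above, was the highest of them. ENSMUST00000165549 had 2.00 and 2.78 FPKM after triptolide, 0.0558 and 0.0429 FPKM after triptonide, and 0.0326 and 0.0615 FPKM in control. ENSMUST00000128338 had 1.68 and 2.17 FPKM after triptolide, 0.0387 and 0.0216 FPKM after triptonide, and 0.0188 and 0.0291 FPKM in control. In both of these the triptonide and control values overlapped, far below triptolide. ENSMUST00000103069 had 1.76 and 1.39 FPKM after triptolide and was listed at 0 in the other libraries except control replicate 1, at 0.0555 FPKM. ENSMUST00000174302 had 1.48 and 1.14 FPKM after triptolide and at most 0.00130 FPKM elsewhere, so that its ratio of 876, the largest of the set, rests on a denominator close to 0.

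Triptonide and control were close to each other over the set, within what the limit on the triptonide mean allows. The median ratio of triptonide mean to control mean was 0.989 over the 65 members with a control mean above 0. The triptonide mean was below the control mean in 33 members and above it in 32. For 48 members the triptonide and control libraries overlapped, for 12 both triptonide libraries were below both control libraries, and for 6 they were above both. The same counts over all transcripts were not made, and the choice limits the high side, so nothing is read from them. The limit has no counterpart on the low side, and 13 members with a control mean above 0 had a triptonide mean of at most 0.5 times the control mean.

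The members with the lowest triptonide to control ratio, among those with a control mean of at least 1 FPKM, were ENSMUST00000016696, ENSMUST00000165485, ENSMUST00000162814 and ENSMUST00000025052. ENSMUST00000016696 had 2.76 and 2.68 FPKM after triptolide, 0.342 and 0.198 FPKM after triptonide, and 1.02 and 1.03 FPKM in control. It was thus highest after triptolide and lowest after triptonide, with both control libraries between, and the same order held for ENSMUST00000165485. ENSMUST00000025052 had 7.68 and 6.00 FPKM after triptolide, 0.804 FPKM and a listing at 0 after triptonide, and 2.28 FPKM and a listing at 0 in control. Its triptonide to control ratio of 0.353 therefore compares replicate 1 of each group.

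A total of 4 members were listed at 0 in both triptonide libraries. They were ENSMUST00000132186 and ENSMUST00000103069, given above, and 2 rows that follow each other in the table. ENSMUST00000088345 had 1.21 and 1.35 FPKM after triptolide and ENSMUST00000121723 had 1.61 and 1.88 FPKM, and each was also listed at 0 in control replicate 1. In control replicate 2 they had 0.513 and 0.539 FPKM. Control replicate 2 was thus the one library without triptolide that held signal for this pair.

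The triptolide libraries lay within 1.5-fold of each other for 59 of 66 members, against 39 for triptonide and 33 for control, where levels were lower. The rule sets a minimum for both triptolide libraries and not for the others, so nothing is read from this difference. Triptolide replicate 1 was the higher library for 37 members. The 2 triptolide libraries were at least 2-fold apart for 4 members. The largest gap was that of ENSMUST00000130430, with 16.1 and 6.10 FPKM after triptolide, 2.16 and 1.92 FPKM after triptonide, and 1.27 and 1.70 FPKM in control. ENSMUST00000099714 had 2.93 and 1.19 FPKM after triptolide, 0.00605 and 0.373 FPKM after triptonide, and 0.574 and 0.567 FPKM in control. ENSMUST00000113977 had 1.15 and 2.68 FPKM after triptolide, 0.350 and 0.405 FPKM after triptonide, and 0.286 and 0.382 FPKM in control. The last of the 4, ENSMUST00000127893, had 3.84 and 7.76 FPKM after triptolide, 1.41 and 1.34 FPKM after triptonide, and 0.946 and 1.07 FPKM in control. In each of these the lower triptolide library still passed the limits, as the choice requires.

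The 47 members not named by level or ratio ran from 1.00 to 12.3 FPKM with a median of 1.97 FPKM in triptolide replicate 1, and from 1.02 to 12.8 FPKM with a median of 1.96 FPKM in triptolide replicate 2. Their medians were 0.376 and 0.397 FPKM after triptonide and 0.535 and 0.410 FPKM in control. The highest of them in the libraries without triptolide was ENSMUST00000113487, with 12.3 and 12.3 FPKM after triptolide, 3.64 and 4.14 FPKM after triptonide, and 4.26 and 4.43 FPKM in control. Here both triptonide libraries lay just below both control libraries. ENSMUST00000149191 showed the opposite order at 8.38 and 8.71 FPKM after triptolide, 3.70 and 3.92 FPKM after triptonide, and 3.01 and 2.96 FPKM in control.

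On the scale of log2(FPKM + 0.5), which understates the change of low transcripts, the median difference of the members was 1.60 for triptolide minus control, 1.80 for triptolide minus triptonide and 0.00 for triptonide minus control. Over all 23407 transcripts tested the medians were -0.26, -0.24 and -0.01. All members passed the filter on low values, because their triptolide values alone meet it. In a limma fit over the whole table, 61 of the 66 members were higher after triptolide than in control at a Benjamini-Hochberg adjusted p under 0.05, where 12.4% of all tested transcripts were. In triptolide against triptonide 51 members were higher, where 3.62% of all were, and in triptonide against control 2 members passed, both lower after triptonide, where 10.6% of all passed in either direction, 6.27% higher and 4.36% lower. The choice used these contrasts, so nothing is read from these counts.

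The 5 members that did not pass in triptolide against control were ENSMUST00000109641, ENSMUST00000025052, ENSMUST00000097724, ENSMUST00000099714 and ENSMUST00000130522. ENSMUST00000109641 had 10.98 and 10.5 FPKM after triptolide, 0.887 and 3.80 FPKM after triptonide, and 0.699 and 3.28 FPKM in control, a spread between replicates that recurs in both groups without triptolide. The 2 members that passed in triptonide against control were ENSMUST00000165485, with a log2 difference of -1.66 ± 0.21, and ENSMUST00000016696, with -0.99 ± 0.17 (SE). Without triptolide replicate 1 or 2 the count of 61 was 17 and 19, of 43 members that were still tested, where 7.68% and 7.5% of all tested transcripts were called. The count of 51 was 11 and 13 without triptolide replicate 1 or 2, where 0.729% and 0.955% of all were called. It was 6 and 29 without triptonide replicate 1 or 2, where 0.102% and 1.49% of all were called. The count of 2 was 1 without either triptolide library and 0 without any 1 of the triptonide or control libraries, where 5 to 7 members had an unadjusted p under 0.05 and 0.892% to 2.53% of all were called.

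The limit on triptonide separates the members from 132 other transcripts that met the triptolide and control limits. Together these are 198 transcripts, and 35 of them were listed at 0 in both control libraries, of which 34 were among the 132. A transcript at 0 in control can only be a member when triptonide is also at 0, which held for ENSMUST00000132186 alone. The 132 had a median triptolide mean of 2.01 FPKM, near the 2.35 FPKM of the members, while their median control mean was 0.0313 FPKM, against 0.543 FPKM for the members. Their median triptonide mean was 0.645 FPKM.

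**Figure D3:**
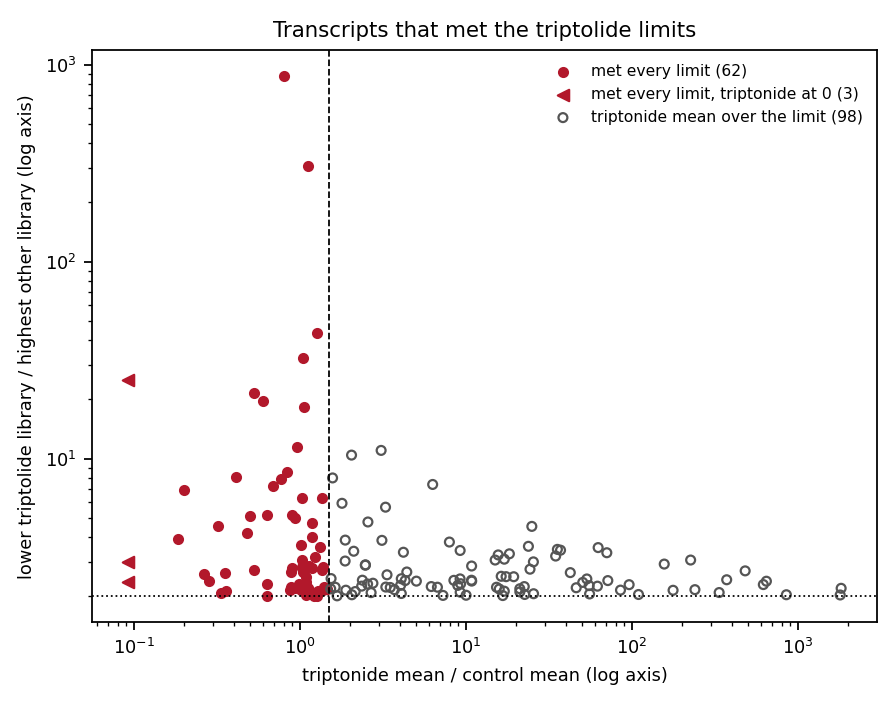
Each point is 1 transcript that met the triptolide and control limits and has a control mean above 0, with the triptonide mean over the control mean on the x axis and the lower triptolide library over the highest other library on the y axis (both log axes). Filled points are 65 members, 3 of them drawn as triangles at the left edge because triptonide was listed at 0. Open points are 98 transcripts past the triptonide limit of 1.5 (dashed line). The points on both sides crowd near the limit of 2 (dotted line). The highest ratio past the triptonide limit is 11.01. Among members it is 876, over a denominator close to 0, or 21.6 where that denominator is at least 0.1 FPKM. A raised triptonide value enters the denominator, so these heights are not compared.

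Apart from the control limit, transcripts just outside the limits were close to the members just inside. Just inside the 2-fold limit lay ENSMUST00000159119 at a ratio of 2.01 and just outside ENSMUST00000160372 at 1.99. At the 1 FPKM limit the neighbours were ENSMUST00000184148 at 1.00 FPKM in its lower triptolide library and ENSMUST00000164205 at 0.977 FPKM. At the triptonide limit they were ENSMUST00000141569 at a ratio of 1.45 and ENSMUST00000147933 at 1.53. At the control limit the member nearest inside, ENSMUST00000068408, had a control mean of 155 FPKM. This limit left out 1 transcript, ENSMUST00000218107, with 1268 and 1192 FPKM after triptolide, 565 and 561 FPKM after triptonide, and 455 and 495 FPKM in control.

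The size of the set depended on the limits and on the scaling between libraries. Raising the fold limit to 3 left 30 of the 66 members, and lowering it to 1.5 gave 130 transcripts. Under median-of-ratios scaling 119 transcripts met the rule, under quantile normalization 111, and 83 when libraries were scaled to their sum without the 100 most abundant rows. All 66 members were among the first 2 of these sets and 65 were among the third. Each of these scalings raised the members' median log2 difference of triptolide minus control, from 1.60 to 1.83, 1.82 and 1.73. They therefore do not show whether the members would stay under a scaling that lowers triptolide. Scaling to equal summed FPKM, which would lower it, was not run. Median-of-ratios scaling divides the triptolide libraries by 0.880 and 0.893, the triptonide libraries by 1.12 and 1.10, and the control libraries by 1.08 and 1.13. When only triptolide replicate 2 or only replicate 1 had to meet the limits, 226 and 221 transcripts did. Without triptonide replicate 1 or 2 the rule found 101 and 122 transcripts, with 60 and 62 of the 66 among them, and without control replicate 1 or 2 it found 75 and 78, each with 56 of the 66.

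**Figure D4:**
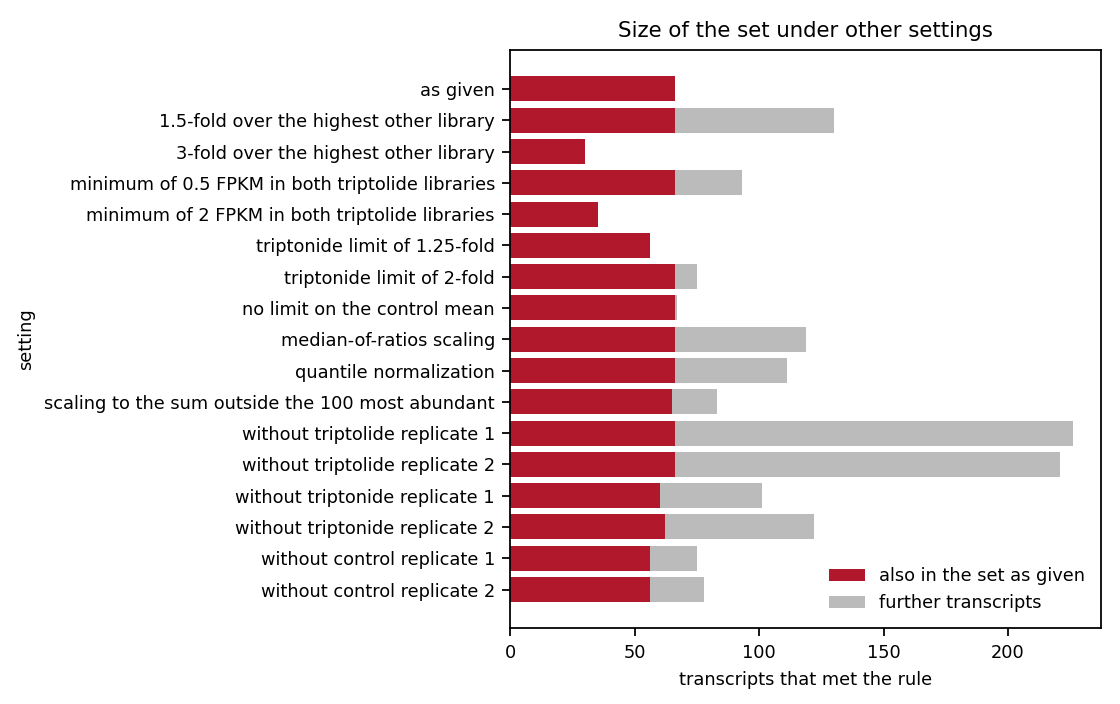
Number of annotated transcripts that met the rule as given (66) and under 16 other settings, with the part also in the set as given in red and further transcripts in grey. The bars run from 30 transcripts with a 3-fold limit to 226 without triptolide replicate 1.

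The rows beside the members were described as well. The unannotated rows carry locus numbers, which did not fall in 343 of 345 steps down the table, while the annotated rows carry none. Whether a member and the row beside it lie near each other or belong to 1 gene was not analysed here, and overlapping transcripts share fragments that the quantification divides between them. The 66 members have 126 directly adjacent rows that are not members, a set chosen after the data were seen. Adjacent rows that met the rule are members and were left out, so the counts of higher rows are limited by the choice and nothing is read from them. Of these, 73 passed the filter on low values. In the limma fit 13 of the 73 were higher (17.8%) and 15 were lower (20.5%) after triptolide than in control at an adjusted p under 0.05, against 12.4% and 23.1% of all tested transcripts. In triptolide against triptonide 3 were higher and 8 lower, against 3.62% and 12.1% of all. The 13 became 6 without triptolide replicate 2, 5 without control replicate 2 and 21 under median-of-ratios scaling, where 7.5%, 8.5% and 17.8% of all were higher. The 3 became 1 with only the 2 groups compared, where 1.65% of all were higher, and 6 under median-of-ratios scaling, where 7.1% were. The count fell with any 1 library left out, where the share of all called also fell.

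In a pair of places the adjacent row was listed at 0 in both triptolide libraries, with at least 1 FPKM in both control libraries. Further adjacent rows at 0 after triptolide did not reach that control level. ENSMUST00000118236, beside ENSMUST00000115776, came close, with 0 and 0.00710 FPKM after triptolide and 5.12 and 5.28 FPKM in control. It had 4.31 and 4.99 FPKM after triptonide. ENSMUST00000191104, in the row after ENSMUST00000187584, was listed at 0 in both triptolide libraries, with 22.7 and 19.1 FPKM after triptonide and 40.3 and 41.6 FPKM in control (limma adjusted p = 0.000505 for triptolide against control, and 0.000337 to 0.00939 over 16 other settings). The summed FPKM of both rows was 8.64 and 8.04 after triptolide, 23.0 and 19.2 after triptonide, and 40.6 and 42.0 in control. The member therefore held the whole sum after triptolide and little of it after triptonide and in control.

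ENSMUST00000116669, in the row after ENSMUST00000092096, was also listed at 0 in both triptolide libraries, with 33.9 and 33.4 FPKM after triptonide and 37.2 and 38.6 FPKM in control (limma adjusted p = 0.000294 for triptolide against control, and 0.000240 to 0.00914 over 16 other settings). Here the sum of both rows was 22.4 and 26.7 FPKM after triptolide, 39.9 and 39.8 FPKM after triptonide, and 45.7 and 44.0 FPKM in control. Since replicates that are both 0 show no spread, both p-values may be too small. Both rows were also picked after the data were seen, because they were listed at 0 after triptolide. The p-values and the shares that follow are therefore a description and support nothing. These were the 2 such rows among the 43 adjacent rows with at least 1 FPKM in both control libraries, or 4.65%, while over all annotated rows with that control level 68 of 13016, or 0.522%, were listed at 0 in both triptolide libraries. Within 3 rows of a member there were the same 2 among 122 such rows, or 1.64%. With 1 library left out the adjacent count was 2 or 3 while the share over all rows was 0.522% to 1.15%, the higher shares being those without a triptolide or a control library.

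Other adjacent rows were detected in every library. Those given below were also picked after the data were seen, so their p-values are a description. ENSMUST00000062674, in the row after ENSMUST00000068408, had 769 and 714 FPKM after triptolide, 828 and 811 FPKM after triptonide, and 763 and 796 FPKM in control. It did not pass against control, at a log2 difference of -0.07 ± 0.05 (SE; limma adjusted p = 0.317), and the p ranged from 0.00163 to 0.790 over 16 other settings. Its direction turned with the scaling, at 0.25 with median-of-ratios scaling (limma adjusted p = 0.031) and -0.64 with quantile normalization (limma adjusted p = 0.00163). In FPKM, this row lay far above the member in the libraries without triptolide and close to it after triptolide.

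ENSMUST00000165111, in the row after ENSMUST00000007131, had 34.5 and 39.2 FPKM after triptolide, 85.3 and 84.0 FPKM after triptonide, and 70.3 and 69.4 FPKM in control. It fell against control by 0.92 ± 0.07 on the log2 scale (SE; limma adjusted p = 0.00177, and 0.00145 to 0.0181 over 16 other settings). The row before the pair, ENSMUST00000056665, had 49.4 and 50.3 FPKM after triptolide, 45.4 and 46.5 FPKM after triptonide, and 21.6 and 21.8 FPKM in control. This row was higher after both compounds in the main fit. Its log2 differences were 1.18 ± 0.05 for triptolide and 1.07 ± 0.05 for triptonide against the same control libraries (SE, with limma adjusted p = 0.000718 and 0.00288). The first limma adjusted p lay between 0.000598 and 0.0121 over 16 other settings, and the second was not followed over them. At this place 4 rows in sequence thus held 1 row higher after both compounds, 2 members, and 1 row that was lower after triptolide.

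A row beside ENSMUST00000112627 resembled it without being a member. This row was picked after the data were seen, for that resemblance, so its p-values are a description and support nothing. ENSMUST00000140165 had 8.50 and 7.29 FPKM after triptolide, 0.564 and 0.662 FPKM after triptonide, and 0.150 and 0.248 FPKM in control. It rose against control by a log2 difference of 3.59 ± 0.18 (SE; limma adjusted p = 0.000874, and 0.000713 to 0.0123 over 16 other settings) and stood above triptonide by 2.91 ± 0.18 (SE; limma adjusted p = 0.00637). The second call was lost without triptonide replicate 1 (limma adjusted p = 0.0506). It missed the set because its triptonide mean exceeded 1.5 times the control mean. Of the 66 members, 3 pairs lay in adjacent rows, namely ENSMUST00000107389 with ENSMUST00000007131, ENSMUST00000088345 with ENSMUST00000121723, and ENSMUST00000029014 with ENSMUST00000155512. The last pair had 3.83 and 3.17 FPKM and 6.42 and 12.8 FPKM after triptolide, 0.323 and 0.0890 FPKM and 1.03 and 1.07 FPKM after triptonide, and 0.611 and 0.0388 FPKM and 1.10 and 1.23 FPKM in control.

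**Figure D5:**
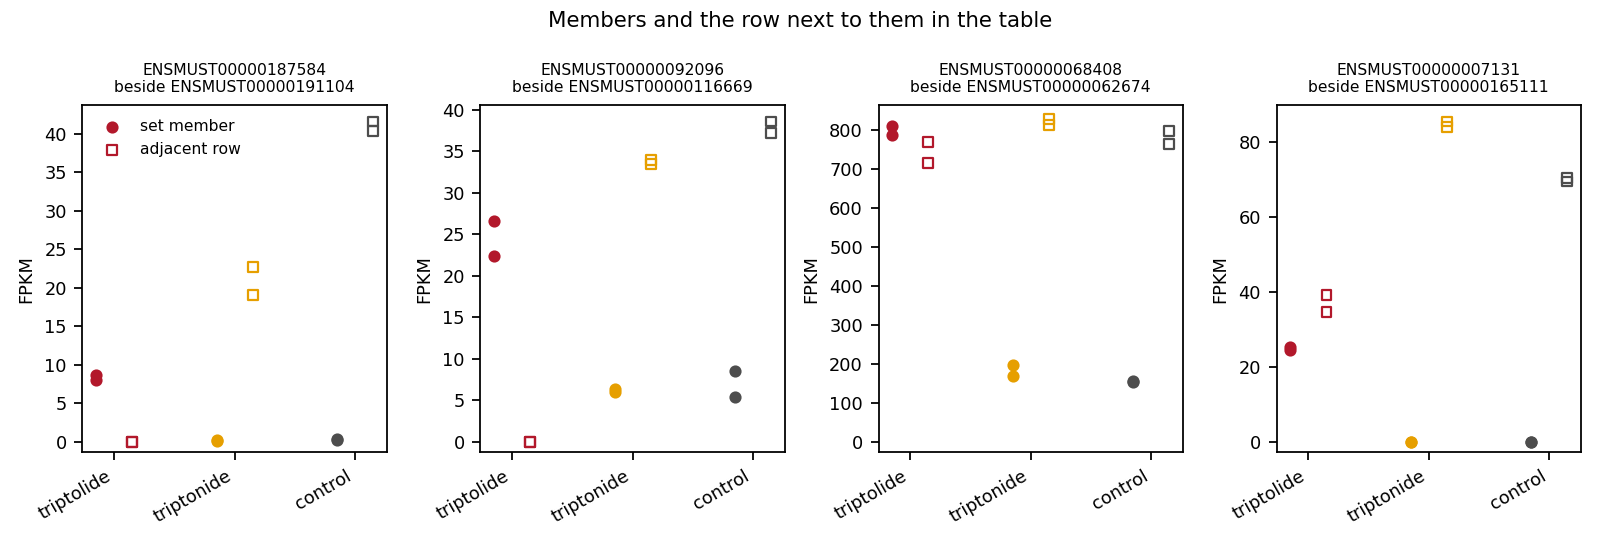
FPKM per library (linear axis) of 4 members (filled circles) and of a row directly beside each in the table (open squares), in the order triptolide, triptonide and control, with 1 symbol per library. In the 2 left panels the adjacent row is at 0 after triptolide and above 19 FPKM elsewhere, in the third it stays between 713.6 and 827.9 FPKM, and in the right panel it is lower after triptolide.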

How the data were processed

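The values are FPKM per transcript and library as the authors deposited them. STAR and StringTie are named, without versions, in the submitters' processing notes, which also name the build hg19, a human assembly, although the transcript IDs are mouse Ensembl IDs. No coordinates are therefore given. Groups and replicate numbers come from the sample titles, and 0 columns of per-sample values were left unused. The members and lists were chosen with earlier results of these data known. The rule for named transcripts took the 8 highest triptolide means, the 6 largest ratios over the highest other library where that library had at least 0.1 FPKM, up to 4 listed at 0 without triptolide, the 4 highest control means, the 4 lowest triptonide to control ratios at a control mean of at least 1 FPKM, the 3 largest gaps between triptolide libraries, and the transcripts nearest each limit. It named 19 members by level or ratio and 3 more as nearest a limit, and others were named after their values were seen.

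Rows reaching 0.5 FPKM in 2 or more libraries were fitted with limma 3.58.1 in R 4.3.3 on log2(FPKM + 0.5), with 1 mean per group, an intensity trend and 3 residual degrees of freedom, with Benjamini-Hochberg adjustment over 23407 transcripts, of which 23116 are annotated. The fit was run on simulated libraries with normal noise as a check of the code, and nothing about the calls is read from it. Planned lists of genes and markers need gene names and were not run. The labels do not say whether replicate numbers pair the libraries, and the main fit did not pair them. Depth is unknown, so no counting intervals are given.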

Additional observations from a re-analysis of the deposited data

Results flagged for a closer look

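The 346 unannotated rows of the table were outside the choice of members. A total of 48 of them met the limits on triptolide and control, and 4 of them met every limit, a signal in rows outside those the members were drawn from, although unannotated rows that passed the filter are in the limma fit. XLOC.4559.1 had 3.39 and 4.22 FPKM after triptolide and was listed at 0 in both triptonide and both control libraries. XLOC.7314.1 had 3.30 and 4.08 FPKM after triptolide and was likewise listed at 0 in the other 4 libraries. XLOC.2749.1 had 3.27 and 2.22 FPKM after triptolide, 0.277 and 0.507 FPKM after triptonide, and 0.605 and 0.235 FPKM in control. XLOC.2416.5 had 1.57 and 1.63 FPKM after triptolide, 0.507 and 0.781 FPKM after triptonide, and 0.548 and 0.576 FPKM in control.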

How the results depend on the processing

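The set of 66 became 130 with a 1.5-fold limit and 30 with a 3-fold limit, 35 with a minimum of 2 FPKM, 119 with median-of-ratios scaling and 111 with quantile normalization, and 75 to 226 with 1 library left out. With a minimum of 0.5 FPKM, a tighter or looser triptonide limit, no control limit, or libraries scaled without the 100 most abundant rows it stayed within 1.5 times of 66. Leaving out a triptolide library loosens the rule by its construction. Members called higher in triptolide against control numbered 17 to 53 with 1 library left out (7.5% to 12% of all tested) and 52 to 63 under the other settings (8.7% to 17.8%). In triptolide against triptonide they numbered 6 to 45 with 1 library left out (0.102% to 1.96% of all) and 40 to 58 under other settings but the replicate block (1.65% to 7.1%). In triptonide against control, where 2 passed, 1 passed with no filter on low values (2.53% of all) and 1 with only the 2 groups compared (6.63%). With a pseudocount of 0.1, no intensity trend or quantile normalization 3 passed (11%, 7.22% and 9.22% of all). Fewer passed with 1 library left out, where the share of all called also fell from 10.6%. With the replicate block, 33 members were higher in triptolide against triptonide (1.35% of all) and 0 passed in triptonide against control by limma, where 3 had an unadjusted p under 0.05 and 2.55% of all passed. Same-numbered libraries did not deviate together, with correlations of their deviations across 23407 transcripts of 0.01, -0.04 and 0.01. The labels do not say whether they were handled together, so a pairing is not settled. With a library left out the fit also loses a residual degree of freedom, and other causes were not tested. Median-of-ratios scaling gave a median log2 difference of triptolide minus control of -0.01 over all tested transcripts, where it was -0.26 as deposited, and of 1.83 over the members, where it was 1.60. The members' median was 2.27 at a pseudocount of 0.1 and 1.23 at 1. Depth is unknown, so the counting error of members near 1 FPKM is not given.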

Other observations

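Some members were uneven between replicates in the same way in triptonide and in control. Over 23407 transcripts the replicate differences of these groups correlated at 0.01. The share of all transcripts that were uneven alike was not counted, so nothing is read from the counts that follow. For 3 members replicate 1 was at least 2-fold above replicate 2 in both groups, and for 2 members replicate 2 was at least 2-fold above replicate 1 in both. For 2 more, ENSMUST00000171040 and ENSMUST00000174302, both groups were at least 2-fold apart in opposite directions, at levels under 0.5 FPKM. ENSMUST00000029014 had 0.323 and 0.0890 FPKM after triptonide and 0.611 and 0.0388 FPKM in control, against 3.83 and 3.17 FPKM after triptolide, where the replicates were alike. ENSMUST00000109641 and ENSMUST00000183565 had the opposite order. ENSMUST00000183565 had 0.0258 and 0.168 FPKM after triptonide and 0.0465 and 0.0959 FPKM in control, against 1.07 and 1.06 FPKM after triptolide.

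The limits applied with triptonide in the place of triptolide found 41 annotated transcripts, fewer than the 66 of triptolide. The sizes depend on the scaling, as above, and their difference was not tested.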
